A study of Mus musculus with 25 samples.

Results

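The joins described here link a Cas9-cut bait end to DNA at Ter elements 2 and 3 of a reporter array, counted from its left end, with the joined DNA running leftward out of the array. They were the rows of the junction tables on the minus strand that lay in a 65-bp window over both elements and whose read ran on into unique sequence at least 20 bp left of the array. Of 11867 listed junctions in all 10 groups, 1043 met this rule, and 1038 of them came from the 8 groups that received Tus. The rule used position, strand and read reach. The question was how far past the first Ter element leftward joins lie, and whether that depends on BRCA1 genotype or siRNA.

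The cells were mouse embryonic stem cells, grown on feeder fibroblasts, with a 4-kb 1xGFP reporter cassette carrying a Ter array in the ROSA26 locus. All groups received Cas9 with a guide that cuts ROSA26 30 kb from the cassette, and genomic DNA was taken after 48 h for LAM-HTGTS. In this assay DNA is copied from a primer beside the bait cut and the reads show what was joined to that cut. The 8 Tus groups were BRCA1del/exon11 and BRCA1flox/exon11 cells (BRCA1del and BRCA1flox here), each with siRNA against BLM, BRCA1, FANCM or Luciferase. BRCA1del had 3 libraries per siRNA, and BRCA1flox had 3 with siFANCM and 2 with each other siRNA. BRCA1del cells with siFANCM were also given I-SceI or the control called EV in the labels, with 2 libraries each. All groups share the bait cut, the reporter and an exon11 allele, and the labels do not say whether each genotype was more than a single clone. The sequencing run in a read name was taken as the library, called A to D. Nothing in the labels says that libraries came from separate cultures, so the p-values measure the spread of libraries alone, and that spread may be technical.

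Tus is a bacterial protein that binds Ter elements and stops a replication fork that arrives at one face of the complex, while a fork from the other side can pass. In mammalian cells a Tus-bound Ter array therefore serves as a site-specific fork barrier. BRCA1 acts in homologous recombination and in the protection of stalled forks, BLM is a RecQ helicase that unwinds recombination and fork intermediates, and FANCM is a DNA translocase that acts on stalled forks.

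The stretch that holds the joins is shown first, since every position below refers to it. It was rebuilt from the reads and is the plus strand of the cassette from 17 bp before element 1 to the end of the window, with the Ter elements in capitals and the bases between them in lower case.
Ter stretch: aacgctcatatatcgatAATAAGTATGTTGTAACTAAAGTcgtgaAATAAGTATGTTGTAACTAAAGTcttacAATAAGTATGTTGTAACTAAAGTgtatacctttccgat
All 3 elements have the same 23 bases, and element 1 lay at cassette positions 3048 to 3070. Bases are numbered from 1 at the left end of each element, so element 1 base 1 is position 3048. The window runs from base 2 of element 2 to 15 bp past element 3. The bait end is the other partner of every join, and its last 30 bases, as rebuilt from the reads, read as follows.
Bait end: cagttcgaaactaggcaggagtaacttgct

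The listed position counted shared bases as cassette sequence. In 990 of the 1043 joins it was the outermost base that matched the cassette. Of 964 reads that also held a 20-base seed of unique sequence left of the array, 869 followed the cassette base for base from there to the listed position. None was displaced by 28 or 56 bp, the distance of 1 or 2 elements with their spacers. Just outside the window, base 1 of element 2 held 49 joins, and base 2, just inside it, held 67. The last base of the window and the base after it held 0. In the Tus groups 36 joins in the window ended within the last 10 bp inside the limit for placement and 59 listed joins ended within the 10 bp short of it.

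Libraries listed 148 to 933 junctions, and the 21 Tus libraries held 7 to 134 of the joins at elements 2 and 3, with a median of 51. Only 2 of the 1038 joins repeated the position, far end and bait end of another join in their library. Runs C and D of each Tus group started with the same 6 read bases. They shared no more joins with each other (0 to 2.55% of run D joins) than run D shared with run C of other groups (0 to 4.12%). The processing notes do not say whether repeats were removed across runs. Low sharing therefore cannot show that runs C and D were separate libraries.

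Joins at elements 2 and 3 were rare without Tus. In BRCA1del with siFANCM they made up 8.89%, 9.15% and 12.8% of listed junctions in runs A, C and D with Tus, a mean of 10.3% ± 2.21 (SD, n = 3). With I-SceI, a nuclease whose site follows the array, they made up 0.375% and 0.222% in runs A and C, a mean of 0.298% ± 0.108 (SD, n = 2). With EV there were 0 among 468 listed junctions, with a Wilson 95% upper limit of 0.814% pooled over libraries. The Tus libraries did not overlap with either control. The exact two-sided permutation p over libraries was 0.10 against each, the smallest that 3 against 2 libraries allow. These shares have junctions outside the array in their denominator. Pooled over libraries the Wilson 95% intervals were 7.97 to 11.1% with Tus and 0.126 to 0.686% with I-SceI, for counting error only. I-SceI gave only 10 leftward joins placed by the same read rule from 23 bp before element 1 to the end of the window. Of these, 5 lay at elements 2 and 3, a mean of 54.2% over libraries against 35.5% with Tus (exact permutation p = 0.50). Of the 5 joins with I-SceI, 4 had microhomology of 2 bp or more, 1 an insertion and 0 were blunt, and 2 lay in the element 3 stretch.

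In what follows the share of joins at elements 2 and 3 is the percentage of leftward joins, placed by the same read rule, from 23 bp before element 1 to the end of the window. In the Tus groups 1038 of 2833 such joins lay at elements 2 and 3. The share was lower in BRCA1del than in BRCA1flox. With siLuciferase, the control siRNA, the BRCA1del libraries were at 36.2%, 40.3% and 29.9% (runs B, C and D; mean 35.5% ± 5.23, SD, n = 3). The BRCA1flox libraries were at 54.3% and 46.8% (runs C and D; mean 50.5% ± 5.26, SD, n = 2). The 2 genotypes did not overlap, and the lowest BRCA1flox library lay above the highest BRCA1del library.

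With siBLM the BRCA1del libraries were at 29.5%, 28.5% and 15.9% (runs B, C and D; mean 24.6% ± 7.59, SD, n = 3) and the BRCA1flox libraries at 37.2% and 54.5% (runs C and D; mean 45.9% ± 12.3, SD, n = 2). Run D of BRCA1del siBLM was the lowest of all Tus libraries and rested on 7 of 44 joins. With siBRCA1 the BRCA1del libraries were at 30.9%, 34.9% and 30.3% (runs B, C and D; mean 32.0% ± 2.52, SD, n = 3) and the BRCA1flox libraries at 39.0% and 39.4% (runs C and D; mean 39.2% ± 0.29, SD, n = 2). The genotypes did not overlap with either of these siRNAs. With siFANCM they did overlap. The BRCA1del libraries were at 33.3%, 25.6% and 47.5% (runs A, C and D; mean 35.5% ± 11.1, SD, n = 3) and the BRCA1flox libraries at 36.4%, 38.1% and 41.1% (runs B, C and D; mean 38.5% ± 2.35, SD, n = 3). The highest BRCA1del value there came from 19 of 40 joins.

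**Figure D1:**
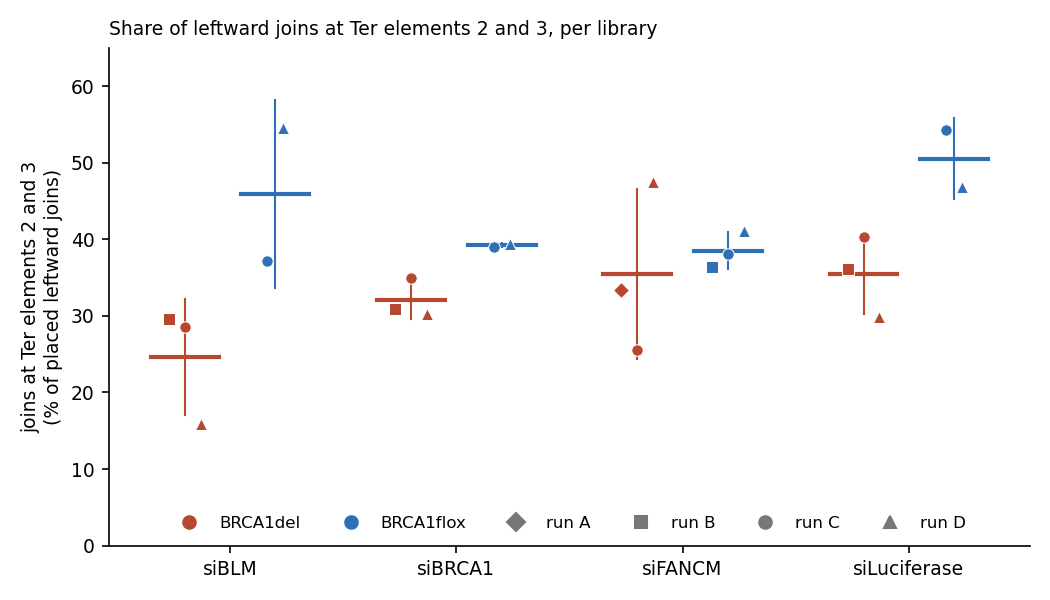
Share of leftward joins that lie at Ter elements 2 and 3, as a percentage of placed leftward joins up to the end of the window, for each Tus library by siRNA (x axis) and genotype (colour). Symbols mark the sequencing run, horizontal bars the mean and vertical lines ± 1 SD. BRCA1flox lies above BRCA1del without overlap for siBLM, siBRCA1 and siLuciferase, and the genotypes overlap for siFANCM.

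Averaged over the 4 siRNAs the share was 31.9% in BRCA1del and 43.5% in BRCA1flox, a difference of -11.6 percentage points. An exact two-sided permutation test over libraries within siRNAs (20000 splits) gave p = 0.00145, or 0.00435 after Benjamini-Hochberg adjustment over the 6 measures compared between the genotypes. Within the 8 pairs of libraries of the same siRNA and run, 7 had the lower share in BRCA1del and the mean difference was -12.2 points (exact sign-flip permutation p = 0.0234, adjusted p = 0.0469). The exception was siFANCM in run D, at 47.5% against 41.1%, and the pair with the widest gap was siBLM in run D, at 15.9% against 54.5%. With siBLM and siLuciferase the difference also passed on joins pooled over libraries (adjusted p = 0.00022 and 9.38e-05 over 11 pairs of groups, Fisher's exact test), which covers counting error only. With siBRCA1 and siFANCM it did not pass on pooled joins (adjusted p = 0.116 and 0.113, Fisher's exact test). Single pairs of groups cannot pass over libraries, since the smallest exact permutation p is 0.10 for 3 against 2 or 3 libraries and 0.333 for 2 against 2.

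Placement moved with genotype too. The read rule placed 63.2 to 83.8% of leftward joins of the whole array, up to the end of the I-SceI site behind it, in the BRCA1del libraries, with a median of 76.3%, and 59.3 to 77.3% in BRCA1flox, with a median of 66.0%. The cassette part of reads at elements 2 and 3 had a median of 144 to 242 bp per library in BRCA1del and 151 to 226 bp in BRCA1flox. With all these leftward joins in the denominator, placed or not, the genotypes differed by -4.31 points, short of the threshold (adjusted p = 0.0905, exact permutation test). Among reads with at least 137 bp of cassette sequence, which could be placed from any position in the window, it was -13.4 points (adjusted p = 0.0048, exact permutation test), with 6 of 8 run-matched pairs lower, which did not pass (exact sign-flip permutation p = 0.0547 before adjustment). With each position counted once per library it was -6.95 points (adjusted p = 0.0429, exact permutation test), again lower in 6 of 8 pairs (exact sign-flip permutation p = 0.0469 before adjustment). Without run C, which held all 8 Tus groups, it was -13.2 points with an adjusted p of 0.0741 in the exact permutation test.

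The genotype difference was not shown to vary between siRNAs (exact permutation of the 8 run-matched differences over siRNAs, p = 0.543, 2520 splits). Against siLuciferase, each of the other siRNAs had the lower mean share over both genotypes, and none of the 3 differences passed. They were -7.73 points for siBLM (p = 0.167), -7.35 for siBRCA1 (p = 0.0667) and -5.99 for siFANCM (p = 0.22), with adjusted p of 0.20 to 0.22 in the exact permutation test within genotypes. These values moved with the run. Without run C they were -1.29, -4.90 and -0.34 points for siBLM, siBRCA1 and siFANCM, and without run D -13.1, -10.3 and -12.9. In the longer reads siBRCA1 was at -2.30. The 3 comparisons share the siLuciferase libraries. siBLM differed by -10.8 points in BRCA1del and -4.66 in BRCA1flox, siBRCA1 by -3.41 and -11.3, and siFANCM by 0.02 and -12. On joins pooled over libraries the lower share passed for siBLM in BRCA1del (27.8% against 36.1%, adjusted p = 0.0205) and for siBRCA1 and siFANCM in BRCA1flox (39.1% and 37.8% against 52.2%, adjusted p = 0.0061 and 0.00074, Fisher's exact test). Those p-values leave out the spread between libraries.

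Over both genotypes joins became sparser from element to element. Among Tus reads with at least 137 bp of cassette sequence, which could be placed from any position up to the end of the window, element 1 held 25 joins per base, element 2 held 20.7 and element 3 held 9.35. The 15 bp after element 3 held 2.73 per base, and the 23 bp before element 1 held 8.87. The genotypes are given side by side, pooled over libraries and with no test by element. In BRCA1del 37.8% of 1013 such joins lay in element 1, 24.2% in element 2 and 10.6% in element 3. In BRCA1flox 28% of 686 lay in element 1, 33.7% in element 2 and 15.7% in element 3. Element 2 thus held 231 joins against 192 in element 1 in BRCA1flox, and 245 against 383 in BRCA1del. The order in BRCA1flox did not hold in every siRNA or under every read rule. With siFANCM element 2 held 60 of these joins and element 1 held 72. Over all placed reads, which favour positions near the left end, element 2 held 324 BRCA1flox joins and element 1 held 392.

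**Figure D2:**
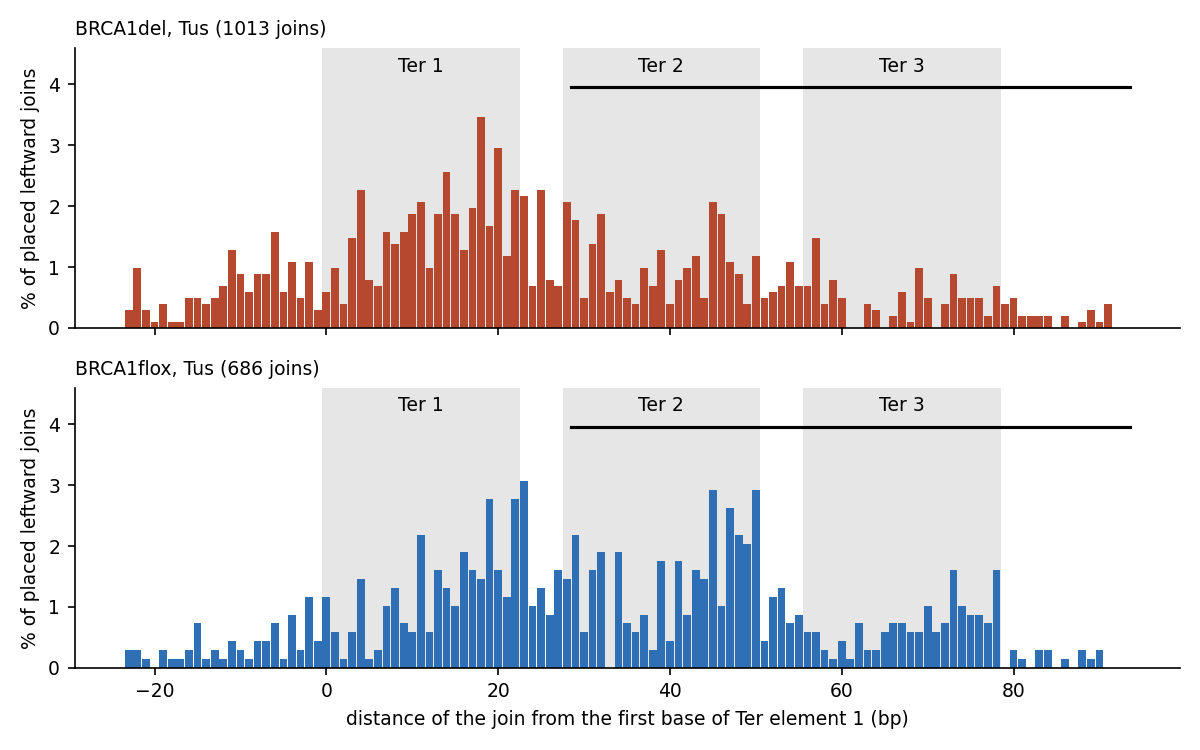
Leftward joins by distance from the first base of Ter element 1 (bp, x axis), as a percentage of placed leftward joins in each genotype (y axis), in Tus reads with at least 137 bp of cassette sequence, pooled over libraries. Elements are shaded and the black line spans the window of the joins described here. Element 2 holds 24.2% of the BRCA1del joins and 33.7% of the BRCA1flox joins.

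How the joins divided between element 2 and element 3 was not shown to differ between the genotypes. Joins from base 2 of element 3 on made up 26.9% of the joins at elements 2 and 3 in BRCA1del and 28.4% in BRCA1flox, as means over siRNAs (difference -1.51 points, exact permutation p = 0.533). Single libraries ranged from 14.3 to 35.3% in BRCA1del and from 20.3 to 40.9% in BRCA1flox, so the ranges overlapped widely. The sign turned to 3.11 points among the longer reads. It turned to 1.78 points without run D and to 0.05 points without BRCA1flox siLuciferase run D. By group, the mean share from element 3 ran from 19.6% ± 4.70 (SD, n = 3) in BRCA1del siBLM to 34.6% ± 8.87 (SD, n = 2) in BRCA1flox siLuciferase.

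Within the window 61 of 65 positions were used, and the 6 most used positions held 291 of the 1038 joins. All 6 lay in element 2. Base 2 held 67 joins from 18 of 21 libraries and all 8 groups, from 2.17% of the joins in BRCA1flox siBRCA1 to 9.76% in BRCA1del siBLM. Base 18 held 56 joins from 17 libraries and was the most even, at 4.35 to 6.50% of the joins of each group. Base 23, the last of element 2, held 49 joins from 18 libraries. It took 1.60 to 4.40% of the joins in the BRCA1del groups (16 joins) and 5.56 to 7.34% in the BRCA1flox groups (33 joins), so that the groups of the 2 genotypes did not overlap. This position was singled out after its values were seen, and no test was made. Group shares were compared only at the 6 most used positions. Other positions were uneven too, such as base 19 of element 2 (25 BRCA1del and 9 BRCA1flox joins) and base 7 of element 3 (0 and 7). Bases 5, 20 and 4 held 47, 37 and 35 joins from 17, 17 and 18 libraries.

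Bases 2, 18 and 23 were among the most used in both elements 2 and 3. Over the 28 offsets of an element and its spacer, the join counts of elements 2 and 3 had a Pearson correlation of 0.77 (Spearman 0.70) in the longer reads. Elements 1 and 2 had 0.35 (Spearman 0.35) and elements 1 and 3 had 0.40 (Spearman 0.41). These are descriptions across positions that share libraries and base sequence. In element 2 base 18 held 41 joins, base 2 held 33 and bases 5 and 23 held 32 each. In element 3 the leading bases were 18, 2 and 23, with 20, 19 and 18 joins. In element 1 the leading bases were 19, 24 and 23, with 45, 43 and 42 joins, base 24 being the first base of its spacer. Base 2 held 14 joins in element 1 against 33 in element 2.

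**Figure D3:**
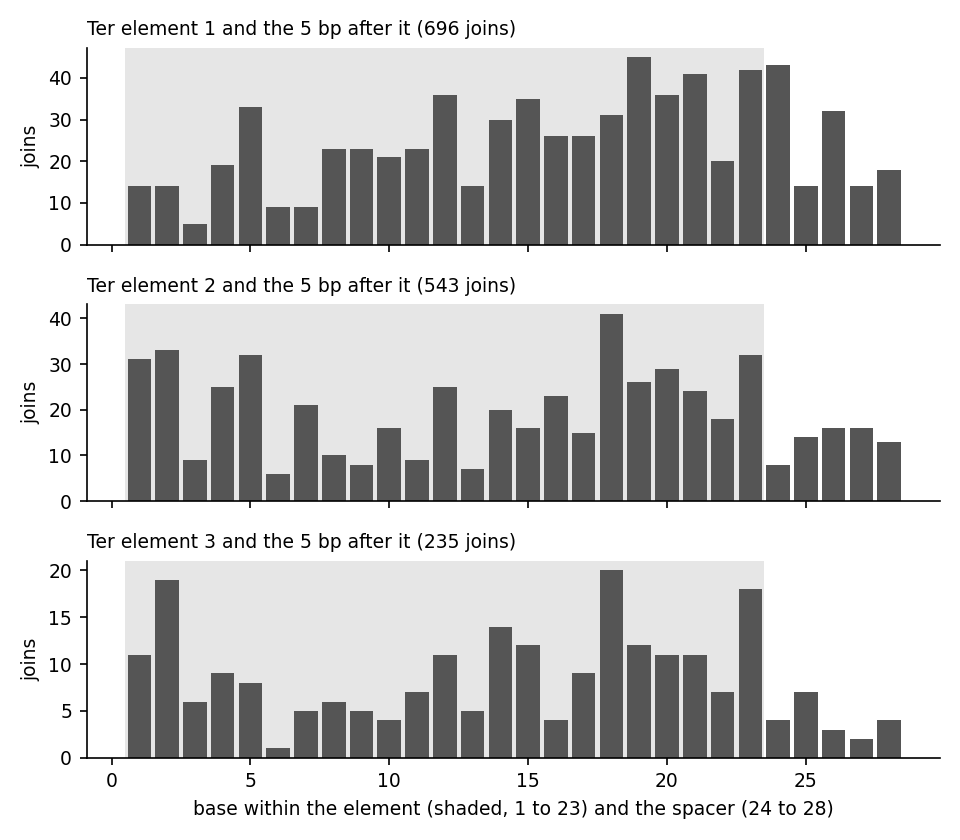
Joins at each base of Ter elements 1, 2 and 3 and the 5 bp after each, in Tus reads with at least 137 bp of cassette sequence, pooled over libraries. The shaded part is the 23-bp element and the y axes differ. Bases 2, 18 and 23 stand high in elements 2 and 3, and bases 19, 21, 23 and 24 in element 1.

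The structure of the join was read from the bases at the seam, where bases present in both partners are microhomology, bases in neither are an insertion, and joins with neither are blunt. It could be called in 1033 of the 1038 Tus joins. Blunt joins numbered 132 and joins with 1 shared base 203. Shared stretches of 2, 3 and 4 bases were found in 233, 127 and 93 joins, and longer ones in 14 joins of 5 bases, 2 of 6 and 14 of 7. Inserted bases were present in 215 joins, with a median of 5 bases and a longest of 107. The bait end had lost a median of 17 bases (interquartile range 5 to 40), counted from the last base of the rebuilt bait end, and 97 joins had lost none.

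The shared words are short and repeat between libraries, as the joins below show. Each is printed from the bait (left) into the cassette (right), with the shared bases in capitals.
TT at element 2 base 2: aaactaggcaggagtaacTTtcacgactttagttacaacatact
TT at element 3 base 20: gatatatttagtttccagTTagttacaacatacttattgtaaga
ACTT at element 2 base 7: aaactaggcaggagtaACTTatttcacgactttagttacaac
TTTAGTT at element 2 base 21: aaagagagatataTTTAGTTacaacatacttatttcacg
The cassette part reads as the reverse complement of the plus strand because these joins run leftward. TT was the most used of 46 words of 2 or more bases, in 64 of 483 joins with microhomology. It led in the element 2 stretch (45 of 322 joins) and in the element 3 stretch (19 of 161 joins). At base 2 it arises from the pair of A bases that open element 2, and the printed form, with 3 bases lost from the bait, came from 7 joins in 7 libraries. The printed form at base 20 of element 3, with 25 bases lost, came from 4 joins in 4 libraries.

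The other words were chosen after their counts were seen. TA followed TT with 55 joins in 20 of 21 libraries. ACTT was the most used word of 4 bases, in 32 joins from 17 libraries. It always met the same bait end, 3 bases short of the last rebuilt base. At base 7 of element 2 alone it was found in 15 joins from 14 libraries. TTTAGTT, the longest word shared, reads the end of element 2 against a bait end that had lost 32 bases, and was found at base 21 in 10 joins from 9 libraries. In element 3, TTG at base 2 gave 11 joins from 10 libraries.

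Blunt joins at elements 2 and 3 were more frequent in BRCA1del. In the 12 BRCA1del libraries they made up 10.5 to 20% of called joins (median 17%), and in the 9 BRCA1flox libraries 4.17 to 16.7% (median 6.98%). Group means were 17.5% ± 2.80 against 5.36% ± 1.69 with siBLM, 17.4% ± 3.08 against 15.1% ± 1.12 with siBRCA1, 18.5% ± 2.34 against 9.43% ± 6.44 with siFANCM, and 13.2% ± 2.43 against 6.12% ± 1.21 with siLuciferase (SD, BRCA1del first, n = 3 against 2, 2, 3 and 2). The gap was narrowest with siBRCA1, and its variation between siRNAs was not tested. The mean over siRNAs was 16.6% against 9.0%, a difference of 7.64 points (exact permutation p = 0.0004, adjusted p = 0.0024). Of the 8 run-matched pairs, 7 had more blunt joins in BRCA1del, and the pairs differed by 6.73 points in the mean (exact sign-flip permutation p = 0.0156, adjusted p = 0.0469). The exception was siBRCA1 in run C, at 14.0% against 15.9%. Over all libraries the difference passed without each library and each run in turn, at 6.88 to 9.12 points (exact permutation test). Only 4 pairs remained without run C or run D, too few for the run-matched test to pass (exact sign-flip permutation p = 0.125 and 0.25 before adjustment). Element 1 leaned the same way, so the difference was not shown to be particular to elements 2 and 3. There 13.3 to 26.3% of called joins were blunt in BRCA1del libraries and 3.57 to 23.5% in BRCA1flox (no test made).

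Insertions were less frequent in BRCA1del within run-matched pairs, whereas the test over all libraries did not pass. They were found in 0 to 24.6% of called joins in the BRCA1del libraries (median 16.5%) and in 14.0 to 35.3% in BRCA1flox (median 20.8%). The means over siRNAs were 14.6% and 22.3%, a difference of -7.79 points that did not pass over all libraries (exact permutation p = 0.0508, adjusted p = 0.0905). Within run-matched pairs insertions were less frequent in BRCA1del in 8 of 8, and the pairs differed by -10.1 points in the mean (exact sign-flip permutation p = 0.00781, the smallest possible, adjusted p = 0.0469). The pairs ranged from 18.0% against 19.0% with siBRCA1 in run C to 0% against 20.8% with siBLM in run D. With each position counted once per library the difference was -3.59 points, lower in 5 of 8 pairs, and neither test passed (exact sign-flip permutation p = 0.188 before adjustment, and adjusted p = 0.359 over all libraries). Without BRCA1flox siLuciferase run D the test over all libraries passed, at -10.5 points (adjusted p = 0.0302, exact permutation test).

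**Figure D4:**
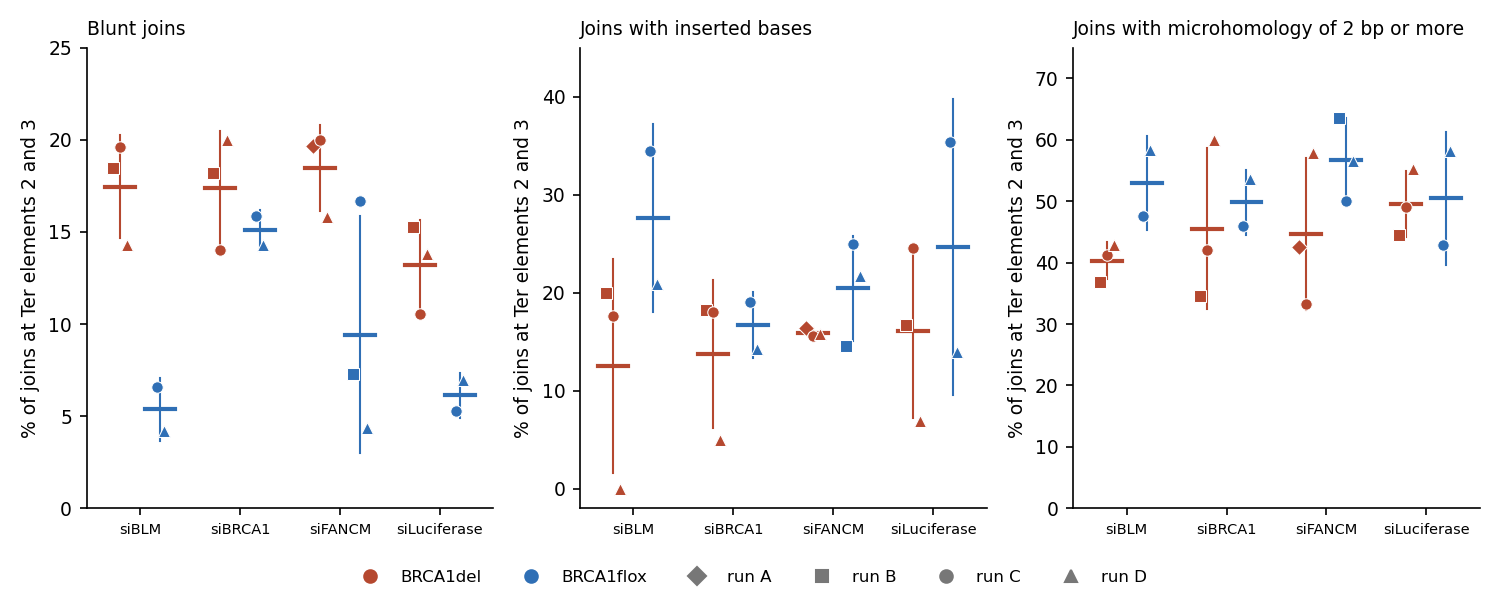
Percentage of called joins at Ter elements 2 and 3 that are blunt (left), carry inserted bases (middle) or share 2 or more bases (right), for each Tus library by siRNA and genotype. Symbols mark the run, horizontal bars the mean and vertical lines ± 1 SD. Blunt shares lie at 10.5 to 20% in BRCA1del and 4.17 to 16.7% in BRCA1flox.

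Microhomology of 2 bp or more was found in 33.3 to 60% of called joins in the BRCA1del libraries and in 42.9 to 63.6% in BRCA1flox. The means over siRNAs were 45% and 52.5%, and the difference of -7.48 points did not pass (exact permutation p = 0.0603, adjusted p = 0.0905). It was negative in 5 of 8 run-matched pairs. Without BRCA1del siBRCA1 run D or BRCA1flox siLuciferase run C it was -9.29 and -9.39 points and passed (adjusted p = 0.0233 and 0.038, exact permutation test), as it did with each position counted once per library (-10.6 points, adjusted p = 0.0324). Counted from 1 shared base, the difference was 0.15 points (adjusted p = 0.97, exact permutation test). Pooled over libraries, joins with exactly 1 shared base made up 23.4% in BRCA1del and 15.7% in BRCA1flox, those with 3 made up 9.79% and 14.9%, and those with 4 made up 7.53% and 10.6%. Element 1 leaned the same way for microhomology of 2 bp or more. It was found there in 26.0 to 46.7% of called joins in BRCA1del libraries and 29.6 to 77.5% in BRCA1flox (no test made).

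**Figure D5:**
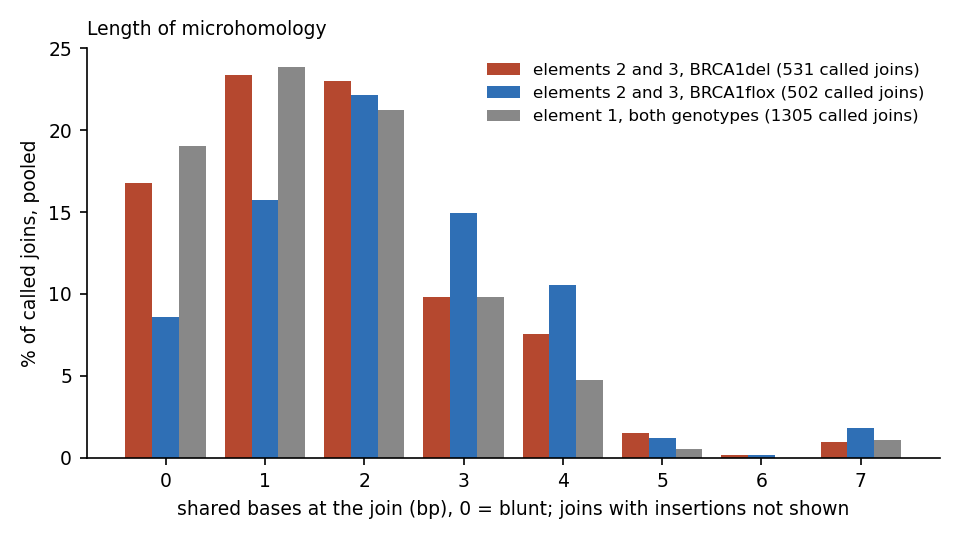
Number of bases shared by bait and cassette at the join (x axis, bp, with 0 for blunt), as a percentage of called joins pooled over Tus libraries, for elements 2 and 3 by genotype and for element 1 in both genotypes. Joins of 0 or 1 shared base are the more frequent in BRCA1del, at 16.8% and 23.4% against 8.57% and 15.7% in BRCA1flox, and joins with insertions are not drawn.

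Bait-end loss did not pass between the genotypes. The median loss per library was 8 to 20 bases in BRCA1del and 8.5 to 40 in BRCA1flox, with means over siRNAs of 14.5 and 20 bases (exact permutation p = 0.0959, adjusted p = 0.115). The highest value, 40 bases, was BRCA1flox siLuciferase run D, against 9.0 bases in BRCA1del of the same siRNA and run. Without run D, and without BRCA1flox siBRCA1 run D, the difference of -5.88 and -7.52 bases passed (adjusted p = 0.0247 and 0.0182, exact permutation test).

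The joins at elements 2 and 3 were set against leftward joins in the 28 bp from base 2 of element 1 on, placed by the same rule, in the 20 Tus libraries with at least 10 of each. The listed position counted shared bases as cassette, which can move joins with microhomology from the element 1 stretch into the window. The comparison was not repeated with shared bases counted as bait, so how much of the microhomology gap comes from this was not tested. Those at elements 2 and 3 more often carried microhomology, in 48.7% ± 8.94 against 41.1% ± 13.8 (SD, n = 20), and the share was higher in 16 of 20 libraries (sign-flip permutation test with 100000 resamples, p = 0.0086, adjusted p = 0.0171 over 4 measures). The 4 exceptions were the run D libraries of BRCA1flox, 1 for each siRNA. They ranged from 56.5% against 57.7% with siFANCM to 58.1% against 77.5% with siLuciferase. Microhomology of 4 bp or more was found in 13.0% against 7.08%, a gap of 5.92 points against 7.58 from 2 bp, and was higher in 18 of 20 libraries (adjusted p = 0.00096, sign-flip permutation test). Blunt joins were the less frequent at elements 2 and 3, in 13.3% ± 5.66 against 17.2% ± 7.06 (lower in 13 of 20, adjusted p = 0.0209, sign-flip permutation test). The median bait-end loss was 17 bases ± 7.2 against 13.0 ± 3.85 (higher in 14 of 20, adjusted p = 0.0171, sign-flip permutation test). Insertions were found in 18.7% and 18.3%, a difference of 0.43 points with an SD of 5.91 over libraries (adjusted p = 0.745, sign-flip permutation test).

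Joins at elements 2 and 3 needed longer reads to be placed, and with reads of at least 137 bp of cassette sequence on both sides (19 libraries) the microhomology difference was 10.4 points (adjusted p = 0.0164) and the loss difference 5.5 bases (adjusted p = 0.0203), whereas the blunt difference of -3.75 points did not pass (adjusted p = 0.0876, sign-flip permutation test). With each position counted once per library, none of the 4 differences passed the sign-flip permutation test, with microhomology 7.19 points (adjusted p = 0.134), loss 3.58 bases (0.175), blunt -0.11 points (0.956) and insertions -1.60 points (0.517). Counted from 1 shared base, the microhomology gap narrowed to 3.46 points, short of the threshold (adjusted p = 0.125, sign-flip permutation test).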

How the data were processed

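Per the labels' protocols, LAM-HTGTS libraries from sonicated DNA with XbaI blocking were sequenced on a MiSeq. The submitters' processing notes name Bowtie2 and mm9, without filters or duplicate removal. Each group has 1 table, deposited by the authors, that lists a junction per row (cassette position, strand, alignment ends, read), so the values are positions, not counts, and 1 junction counts as 1 join. The window and the comparisons were chosen with earlier results of these data known.

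The bait end and the array were rebuilt from the reads, because no cassette reference was used here. The bait was ended where fewer than 60% of the reads following it shared the next base (668 of 1969 reads), not at a known cut position. Bait-end loss, blunt joins and insertions were called from that end. In 1-based cassette coordinates, Ter elements 1 to 3 lay at 3048 to 3070, 3076 to 3098 and 3104 to 3126, the window was 3077 to 3141, its denominator began at 3025 and the whole array ended at 3276. The array repeats after 117 bp, so only joins whose read reached 3005 or lower were placed. The bait part was extended over mismatches followed by 10 matching bases, and the cassette part from an exact 12-base seed. Caller and permutation test were tested on simulated data.

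The tables carry no replicate number. Each run of a group was 1 library, since runs and labelled samples were equal in number in all 10 groups, and run-matched pairs stood in for a block. Tests were two-sided with a threshold of 0.05. Positions named are the 6 with the most joins. Sequences to be named were the most used word in each element and the array stretch, and the other words were added after their counts were seen. Alternatives were the denominator, window, placement, repeated positions, microhomology minimum and each library or run left out. Amplified reads are not independent molecules, so intervals and Fisher's tests cover counting error only. Python 3.11.15, pandas 2.3.3, NumPy 2.4.6, SciPy 1.17.1 and matplotlib 3.10.9 were used.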

Additional observations from a re-analysis of the deposited data

Results flagged for a closer look

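In the Tus groups 1114 leftward joins were listed in the window over elements 2 and 3. Of these, 76 were left out because their read ended too close to the array for placement. They were counted in denominators alone, those of all listed junctions and of all leftward joins, placed or not. With EV, 0 leftward joins were listed in that window.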

How the results depend on the processing

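The lower share of joins at elements 2 and 3 in BRCA1del kept its direction under all 35 alternatives and passed in 33 over all libraries, at -6.95 points with each position once. The exceptions were all leftward joins as denominator (-4.31 points) and leaving out run C. Of the 35, 25 left out 1 library or run, and run A held only 1 Tus library, so these overlap. In run-matched pairs the share did not pass with all leftward joins as denominator or in the longer reads (exact sign-flip permutation p = 0.125 and 0.0547 before adjustment). Nor did it pass without run C or run D (0.25 and 0.125), where 4 pairs remained. Without 1 library or run at a time, the genotype differences ranged from -13.8 to -9.47 points for that share, from 6.88 to 9.12 for blunt joins, from -5.17 to 1.78 for the third-element share, from -10.7 to -4.18 for microhomology, from -10.5 to -4.44 for insertions and from -7.77 to -3.27 bases for bait-end loss. The blunt difference passed under all 27 alternatives in the exact permutation test over all libraries. In run-matched pairs the exact sign-flip permutation p was 0.125 without run C, 0.25 without run D and 0.03125 with each position once, before adjustment. Among reads of at least 137 bp of cassette sequence, the third-element difference turned to 3.11 points and the blunt difference from element 1 was -3.75 points. With each position once, the genotype difference in microhomology passed (-10.6 points), and the differences from element 1 were -0.11 points for blunt joins, 7.19 for microhomology, -1.60 for insertions and 3.58 bases for loss. With microhomology from 1 bp the genotype difference was 0.15 points and the difference from element 1 was 3.46. The insertion difference from element 1 ranged from -0.0798 to 1.16 points without 1 library, and it was below 0 without BRCA1del siLuciferase run C (-0.00459) or BRCA1flox siFANCM run D. On pooled joins the BRCA1del to BRCA1flox difference was -15.5 points with siBLM and -16.1 with siLuciferase. Against siLuciferase it was -8.37 for siBLM in BRCA1del, -13.1 for siBRCA1 and -14.4 for siFANCM in BRCA1flox, all past the threshold. In BRCA1del siFANCM it was -4.81, where the mean over libraries gave 0.02. The cause of these changes was not tested. No paired analysis was possible because the deposited tables carry no replicate number, and run-matched pairs were used instead. Libraries with few joins (7 in the smallest) limit single shares.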
